A study of Homo sapiens with 9 samples.

Results

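Knocking a gene down with 2 hairpins of different sequence is a common check, and here the 2 hairpin arms were set against each other. The arm shZMAT2-2 was compared with the arm shZMAT2-1, each of 3 libraries of Huh7 cells, a line derived from a human hepatocellular carcinoma. All 6 libraries carry a short hairpin RNA aimed at ZMAT2, and a control group of 3 Huh7 libraries was used only for levels. The labels give no sequence for either hairpin, no culture time and no statement of what the control cells carried. They also do not say whether the libraries of a group came from separate cultures, so the p-values measure the spread between these libraries, which may be technical. Polyadenylated RNA was sequenced in strand-specific libraries, and expression is given as FPKM, a fragment count corrected for transcript length and for depth. The genes described are the nuclear protein-coding genes that reached 1 FPKM in 3 or more of the 6 arm libraries, with each library rescaled to the same sum over nuclear genes. They number 10066 of the 27421 genes in the deposited table, which lists 16951 nuclear protein-coding genes. At the edge of that filter FSBP lay just inside, with 1 FPKM in the library that decided it, and DRD4 just outside, with 0.999.

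ZMAT2 encodes a zinc finger protein of the spliceosome, the machine that removes introns from pre-mRNA, and joins it with the tri-snRNP when the B complex forms. A short hairpin RNA is cut into a small interfering RNA that guides the Argonaute protein to the matching transcript, and each hairpin also has its own partial matches elsewhere. Genes that move alike with both hairpins are usually read as following the target. The study was set up to ask whether ZMAT2 acts in liver cancer cells through splicing, with TRIM28, a corepressor that silences retroelements, as the transcript of interest.

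The libraries did not differ by arm alone. Their depth was 18340000 to 23610000 fragments, recovered from the values of 1631 single-exon genes. The 13 mitochondrially encoded mRNAs took 28.7%, 50.5% and 27.6% of the summed FPKM in shZMAT2-1 replicates 1 to 3, and 65.9%, 46.2% and 49.0% in shZMAT2-2. Among the controls they took 28.8%, 80.8% and 29.9%. Replicate 2 of shZMAT2-1 and replicate 2 of the controls thus stood apart from the other libraries of their groups. The mean share of shZMAT2-1 was 35.6% ± 12.9 and that of shZMAT2-2 was 53.7% ± 10.7 (SD, n = 3 each), a difference of 18.2 points with a two-sided exact permutation p of 0.3. As a share of fragments the same mRNAs took 7.7% to 16.4% in shZMAT2-1 and 14.5% to 27.0% in shZMAT2-2. The first principal component of the 6 libraries held 84.9% of the variance of the log2 values, and its score followed the mitochondrial share more than the arm: -36.9, 16.03 and -29.8 in shZMAT2-1 against 29.9, 19.5 and 1.28 in shZMAT2-2. Medians of gene lists are therefore printed with the median from the fit of the 6 arm libraries that has log2 of the mitochondrial share as a term. All 10 hepatocyte markers were among the tested genes, with summed levels of 5574 to 5718 in shZMAT2-1, 5420 to 5752 in shZMAT2-2 and 6082 to 6227 in the controls. The 6 fibroblast and stellate markers summed to at most 3.61 in any arm library and the endothelial ones to at most 1.10. The 6 leukocyte markers summed to 65.9 to 71.3 in shZMAT2-1 and 58.0 to 69.8 in shZMAT2-2, nearly all of it LYZ, and the 4 cholangiocyte markers to 52.3 to 84.9 and 77.9 to 104.

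**Figure D1:**
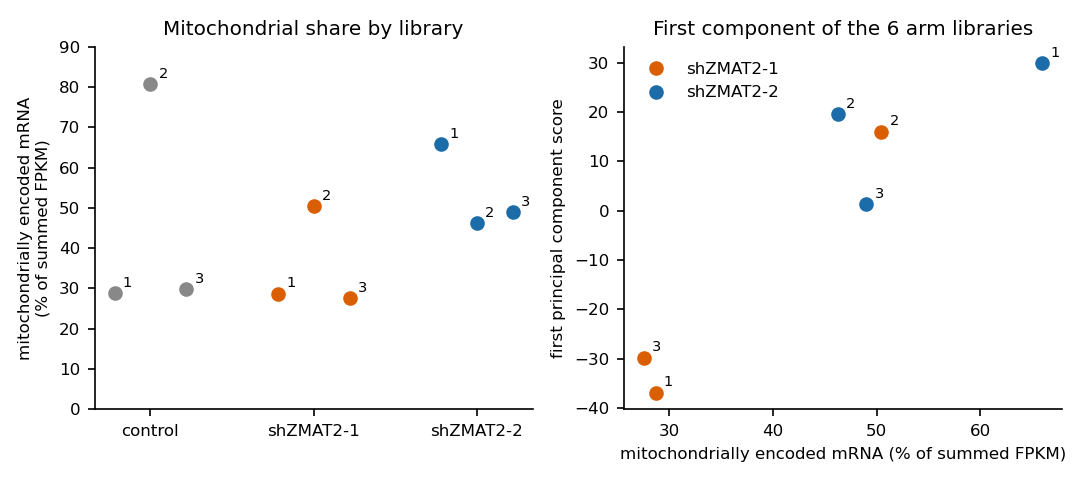
The left panel gives the share of summed FPKM taken by mitochondrially encoded mRNA in each library (points numbered by replicate), and the right panel the first principal component score of the 6 arm libraries against that share. Replicate 2 of shZMAT2-1, at 50.5%, sits with the shZMAT2-2 libraries on both measures, and the other shZMAT2-1 libraries lie at 27.6% and 28.7%.

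ZMAT2 itself (ENSG00000146007, chromosome 5, 140698680 to 140706686, plus strand, coordinates of the deposited table) was lower in both arms than in the controls, and less so in shZMAT2-2. Its rescaled FPKM was 12.9, 13.8 and 11.4 in shZMAT2-1, 27.5, 21.5 and 21.1 in shZMAT2-2 and 34.02, 52.9 and 35.3 in the controls. No library of one group overlapped another, and the arm means stood at 31.1% and 57.4% of the control mean. The second arm held 1.84 times the ZMAT2 of the first, 23.4 ± 3.56 against 12.7 ± 1.201 (SD, n = 3 each). Its difference, the mean log2(rescaled FPKM + 1) of shZMAT2-2 minus that of shZMAT2-1, was 0.83 with a standard error (SE) of 0.15. The exact permutation p was 0.1, two-sided, which is the smallest that 3 libraries against 3 allow. In bulk libraries a smaller share of cells with the transcript and less of it per cell cannot be told apart. TRIM28 (ENSG00000130726, chromosome 19, 58544064 to 58550722, plus strand) read 161, 115 and 151 in shZMAT2-1 and 89.9, 105 and 127 in shZMAT2-2, with 135, 84.9 and 133 in the controls. The arms overlapped, and the means of 142 ± 24.2 and 107 ± 18.5 (SD, n = 3 each) gave an exact permutation p of 0.2, two-sided. Gene totals of this kind do not show which TRIM28 isoforms were made.

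Across all 10066 genes the 2 arms could not be separated gene by gene. With limma and Benjamini-Hochberg adjustment 0 genes (0%) passed an adjusted p of 0.05, the lowest adjusted p was 0.262, and 1772 genes (17.6%) had an unadjusted p under 0.05. In 1066 genes (10.6%) every shZMAT2-2 library was above every shZMAT2-1 library, and in 674 genes (6.7%) every one was below. These genes are called higher or lower without overlap here, which describes the 6 values and is not a test. The count of 0 hung on 1 library: without shZMAT2-1 replicate 2, 5041 genes (50.1%) passed, 3513 (34.9%) higher and 1528 (15.2%) lower in shZMAT2-2, while leaving out any other arm library left 0. Without that library the mitochondrial shares are 28.7% and 27.6% in shZMAT2-1 against 46.2% to 65.9% in shZMAT2-2. Arm and share therefore cannot be told apart in those 5041 calls. With log2 of the mitochondrial share as a term beside the group and all 9 libraries in the fit, 24 genes (0.238%) passed, 18 higher and 6 lower. The median difference over all tested genes was 0.12 on the rescaled values and -0.09 on the FPKM as deposited, so a gene list is read against the median of all genes. The median of all genes was -0.003 with the mitochondrial share as a term for the 6 libraries. It was 0.01 for control replicate 2 against the other controls.

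The difference between the arms resembled a difference among the controls, which no hairpin separates. Across the 10066 genes the arm difference and the difference of control replicate 2 from controls 1 and 3 had a Pearson r of 0.831 and a Spearman rho of 0.833. No library enters both, the genes are not independent, and the mitochondrial share is high in control 2 and higher on average in shZMAT2-2. The sign was equal for 80.4% of all genes and for 83.7% of the 1740 genes without overlap between the arms. With the mitochondrial share as a term in the fit of the 6 arm libraries the correlation was 0. ZMAT2 lay above the band of genes, with 0.83 between the arms and 0.60 among the controls.

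**Figure D2:**
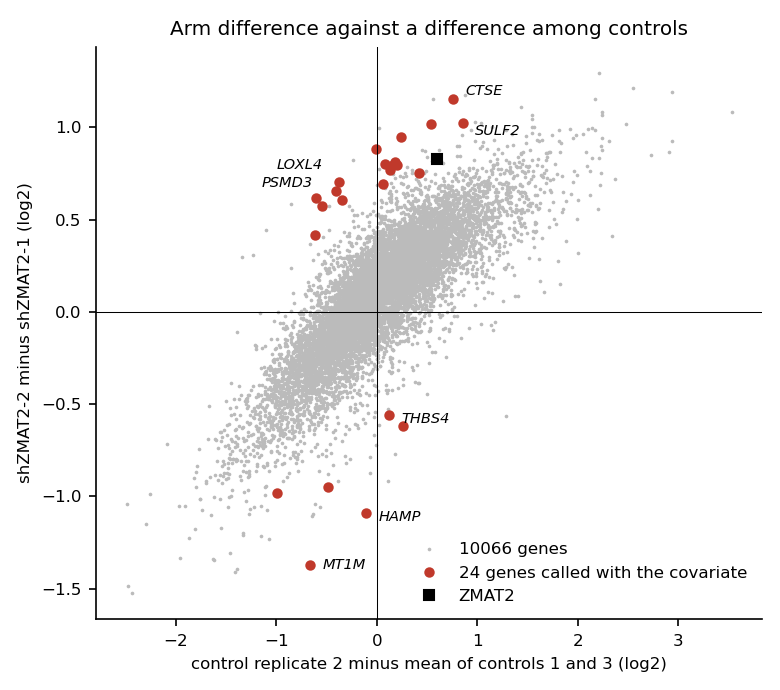
Each grey point is 1 of the 10066 tested genes, placed by its log2 difference between control replicate 2 and controls 1 and 3 (horizontal) and between shZMAT2-2 and shZMAT2-1 (vertical). The cloud runs from lower left to upper right (Pearson r 0.831), and the 24 genes called with the mitochondrial share in the fit (red) lie off its axis.

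Genes called in that fit are described first, in 4 sets by how near the mean of the controls lay to each arm. The sets are descriptive and have no fixed border. All 24 were without overlap between the arms and kept their sign when any of the 9 libraries was left out. Both are close to given for genes picked by their differences in these same libraries, and the call itself was fragile. Their adjusted p-values (limma, all 9 libraries) ran from 0.0418 to 0.0479, and 0 genes passed when any of 7 libraries was left out. Without shZMAT2-2 replicate 3, 16 genes passed, 12 of them among the 24, and without shZMAT2-1 replicate 2, 427 passed, all 24 included. In the sentences on these genes, the difference with the covariate is that of the 9-library fit. The arms share their controls, so the control values are set beside both arms without a count of what they have in common.

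In one set shZMAT2-1 stood apart and shZMAT2-2 lay near the controls. UGT2B4, an enzyme that attaches glucuronic acid to bile acids and drugs, read 10.8, 12.6 and 11.1 in shZMAT2-1, 22.02, 21.7 and 18.6 in shZMAT2-2 and 21.8, 24.8 and 22.5 in the controls. Its difference was 0.80 (SE 0.13), and 0.71 (SE 0.09) with the covariate. The lowest shZMAT2-2 library thus lay well above the highest of shZMAT2-1, replicate 2. PSMD3, a lid subunit of the proteasome's regulatory particle, read 36.6, 40.4 and 35.3 in shZMAT2-1, 51.3, 63.4 and 64.6 in shZMAT2-2 and 66.7, 49.05 and 63.9 in the controls. Its difference of 0.66 was opposite in sign to the -0.41 of control 2 against the other controls. GPR37, an orphan G protein-coupled receptor, read 0.911, 0.728 and 1.13 in shZMAT2-1, then 1.57, 2.34 and 1.70 in shZMAT2-2, with 2.62, 1.36 and 2.26 in the controls. Low expression makes that gene less certain, although the arms do not overlap. MT1M, a metallothionein that binds zinc and copper, was high in shZMAT2-1 instead, at 12.6, 7.55 and 10.8 in shZMAT2-1, 2.93, 2.80 and 4.32 in shZMAT2-2 and 4.70, 2.21 and 3.57 in the controls. Its difference of -1.37 (SE 0.21) was -1.06 (SE 0.17) with the covariate.

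Another set stood apart in shZMAT2-2 while shZMAT2-1 lay near the controls. HAMP, which encodes the iron hormone hepcidin, read 1.44, 1.52 and 1.62 in shZMAT2-2 against 4.72, 3.25 and 5.36 in shZMAT2-1 and 4.83, 4.56 and 5.13 in the controls. Its difference was -1.09 (SE 0.16), and -0.96 (SE 0.13) with the covariate. The highest shZMAT2-2 library was under the lowest of the other 6. SPP1, which encodes osteopontin, a secreted matrix phosphoprotein, read 4.96, 4.75 and 3.83 in shZMAT2-2, 1.41, 2.37 and 1.46 in shZMAT2-1 and 1.61, 2.73 and 1.53 in the controls. PLEKHA7, a protein of the epithelial adherens junction, read 2.35, 2.63 and 2.09 in shZMAT2-2, 0.739, 1.18 and 0.871 in shZMAT2-1 and 0.964, 1.12 and 1.04 in the controls. SERPINA7, the thyroxine carrier of plasma, read 2.46, 2.55 and 1.81 in shZMAT2-2, 0.755, 1.05 and 0.772 in shZMAT2-1 and 1.06, 1.36 and 1.11 in the controls. In these 3 genes all shZMAT2-2 libraries were above all of the other 6. In SERPINA7 every control library also lay above every shZMAT2-1 library, though narrowly. SULF2, a sulfatase that trims heparan sulfate on the cell surface, read 9.46, 8.22 and 7.02 in shZMAT2-2, 3.03, 4.77 and 2.94 in shZMAT2-1 and 3.14, 6.28 and 2.93 in the controls. MYH14, a nonmuscle myosin heavy chain, was on the low side at 2.12, 2.07 and 2.56 in shZMAT2-2 against 3.73, 4.42 and 3.79 in shZMAT2-1 and 4.26, 5.12 and 3.96 in the controls. COL26A1, a collagen, read 9.60, 10.1 and 11.8 in shZMAT2-2 against 22.3, 18.1 and 23.2 in shZMAT2-1 and 21.3, 14.2 and 19.3 in the controls. BCAS1 also had this pattern, at 2.20, 1.80 and 1.76 in shZMAT2-2, 0.541, 0.857 and 0.646 in shZMAT2-1 and 0.545, 0.883 and 0.745 in the controls.

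In the third set the means of both arms lay on the same side of the controls, and shZMAT2-2 lay farther from them although it kept more ZMAT2. LOXL4, a lysyl oxidase that crosslinks collagen, read 11.8, 7.92 and 9.45 in the controls, 20.03, 19.1 and 21.1 in shZMAT2-1 and 31.95, 35.3 and 32.9 in shZMAT2-2. Its arm difference was 0.71 (SE 0.11), and 0.85 (SE 0.10) with the covariate. ANKRD1, an ankyrin repeat protein and a standard target of the YAP and TEAD regulators, read 26.2, 28.1 and 24.9 in the controls, 40.02, 48.3 and 39.8 in shZMAT2-1 and 80.7, 76.03 and 63.7 in shZMAT2-2. HABP2, a plasma serine protease that binds hyaluronan, read 4.02, 5.07 and 4.27 in the controls, 7.42, 11.2 and 9.24 in shZMAT2-1 and 20.2, 16.8 and 18.97 in shZMAT2-2. TUBA1A, an alpha-tubulin, read 2.32, 2.58 and 2.57 in the controls, 3.05, 3.28 and 2.75 in shZMAT2-1 and 5.24, 5.70 and 5.58 in shZMAT2-2. The 3 groups were separate in each of these genes. THBS4, a thrombospondin of the matrix, had the opposite direction, with 23.2, 25.4 and 23.3 in the controls, 15.1, 17.1 and 15.8 in shZMAT2-1 and 10.4, 10.8 and 10.4 in shZMAT2-2. CTSE, an aspartic protease of the endosome, read 1.61, 3.50 and 1.73 in the controls, 3.03, 5.35 and 3.11 in shZMAT2-1 and 12.01, 8.53 and 8.35 in shZMAT2-2, with control 2 inside the range of shZMAT2-1. FSTL1, a secreted glycoprotein that binds members of the TGF-beta family, read 1.28, 0.808 and 1.33 in the controls, 1.79, 1.84 and 1.73 in shZMAT2-1 and 3.15, 3.66 and 2.94 in shZMAT2-2. SERPINE2, an inhibitor of thrombin and urokinase, read 4.76, 6.82 and 4.94 in the controls, 6.37, 8.21 and 6.40 in shZMAT2-1 and 13.6, 12.4 and 11.3 in shZMAT2-2, where control 2 again lay inside the range of shZMAT2-1. VIM, the mesenchymal intermediate filament vimentin, had this order too without being called, at 17.1, 18.2 and 16.2 in the controls, 42.3, 41.3 and 38.2 in shZMAT2-1 and 55.7, 56.5 and 61.4 in shZMAT2-2.

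In the fourth set the mean of the controls lay about midway between the arms. In MT1M, SPP1, PLEKHA7, SERPINA7, SULF2, COL26A1 and BCAS1 it also lay between the arms, but farther from the middle. UGT2B11 read 0.487, 0.778 and 0.341 in shZMAT2-1, 1.68, 2.03 and 1.74 in shZMAT2-2 and 0.981, 1.14 and 1.33 in the controls, and its 3 groups were separate. CES1, a liver carboxylesterase that hydrolyses esters and prodrugs, read 9.10, 7.00 and 7.50 in shZMAT2-1, 11.05, 12.6 and 14.1 in shZMAT2-2 and 11.5, 7.44 and 12.3 in the controls. The controls spanned both arms in that gene, and their low value was control 2. RAMAC, the activating partner of the mRNA cap methyltransferase, read 12.6, 9.65 and 12.5 in shZMAT2-1 and 13.4, 18.7 and 15.5 in shZMAT2-2, and its controls likewise spanned both arms at 16.97, 9.86 and 14.5 in the controls. UGT2B4, UGT2B11 and MT1M belong to families of near-identical genes, and their values are uncertain where reads could be split among copies.

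**Figure D3:**
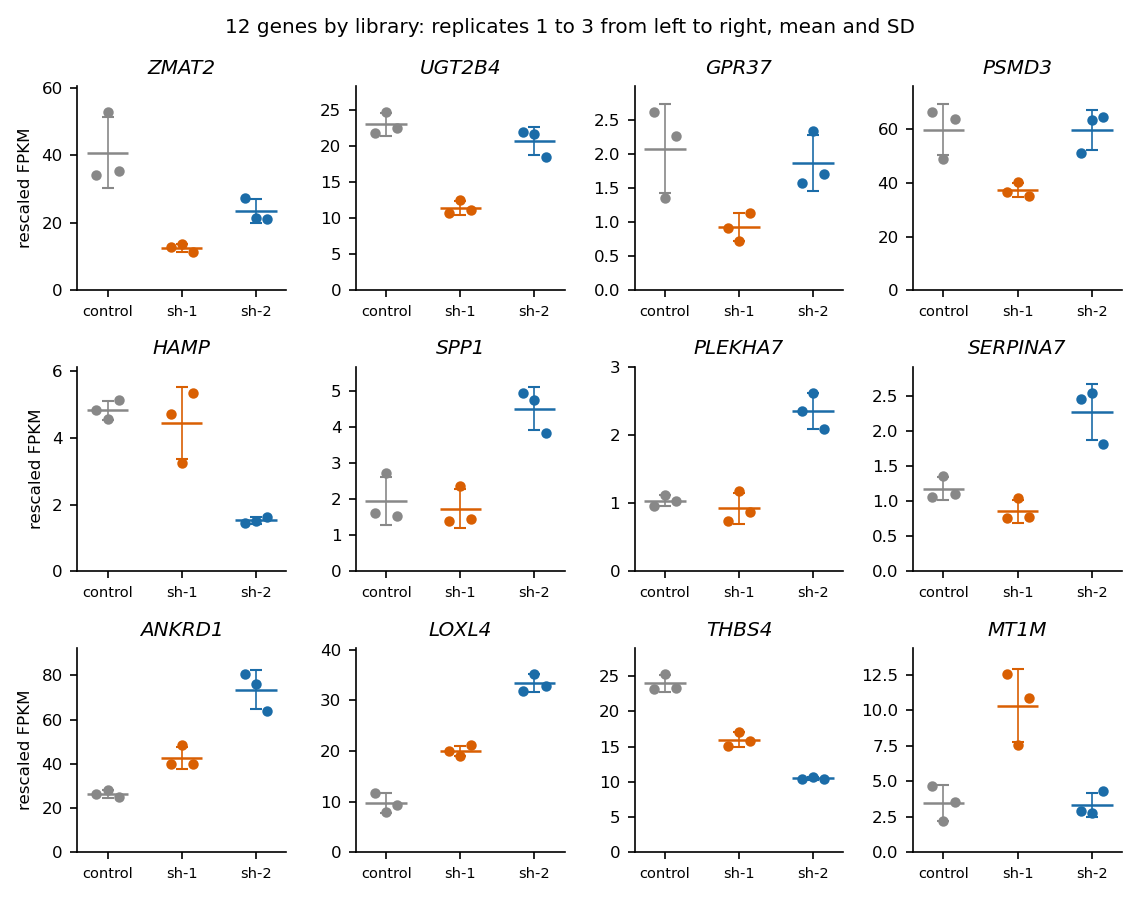
Rescaled FPKM of 12 genes in the control, shZMAT2-1 (sh-1) and shZMAT2-2 (sh-2) libraries, with points for replicates 1 to 3 from left to right, a bar at the mean and the SD (n = 3). In the top row shZMAT2-1 lies lowest, in the middle row shZMAT2-2 stands apart, and in the bottom row ANKRD1, LOXL4 and THBS4 are graded across the groups while MT1M is high in shZMAT2-1.

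Of the lists with 5 or more tested genes, cholesterol synthesis and uptake had the largest share lower without overlap. Hepatocytes make cholesterol from acetyl-CoA through mevalonate and squalene, and the regulator SREBP2 sets the enzymes' transcription together with the factor NF-Y, which binds the CCAAT box. Of the 26 listed genes, all tested, 10 (38.5%) were lower without overlap in shZMAT2-2 and 1 (3.85%) higher, against 6.7% and 10.6% of all genes. The median difference was -0.25 beside 0.12 over all genes, negative under each of the 5 scalings. In the fit of the arms alone 0 members passed limma's adjusted p, and in the 9-library fit with the covariate 1 passed, on the low side. With the mitochondrial share as a term for the 6 libraries the median was -0.18, and among the controls control 2 had a median of -0.30 against the other controls. Whether the share accounts for the list's difference was not tested. Among the 10 was MVD, the mevalonate diphosphate decarboxylase, at 54.1, 28.9 and 52.4 in shZMAT2-1 and 19.6, 23.7 and 28 in shZMAT2-2. LSS, which closes squalene epoxide to lanosterol, read 25.8, 22.8 and 26.2 in shZMAT2-1 and 16.03, 18.7 and 19.2 in shZMAT2-2, with 23.01, 15.7 and 20.9 in the controls. DHCR7, which makes cholesterol from its last precursor, read 77.4, 70.03 and 78.6 in shZMAT2-1 and 51.3, 60.1 and 63.2 in shZMAT2-2, with 71.6, 47.7 and 68.3 in the controls. Others of the 10 were MVK, NPC1L1, ACAT2, IDI1, MSMO1 and FDFT1, with differences from -0.59 to -0.25. By sign alone 22 members were lower and 4 higher, beside 3694 lower and 6372 higher of all genes. The 1 higher without overlap was INSIG1, the sterol-regulated protein that holds SREBP2 in the endoplasmic reticulum, at 0.27.

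Promoter sequences are shown for 4 of these enzymes, because CCAAT boxes are what the promoters of the list had in common. In the 250 bases before the start, CCAAT on either strand was found in 16 of the 19 listed genes with a RefSeq promoter (84.2%) and in 6 of the 7 that were lower without overlap. It was found in 35.9% of the 8307 tested genes with a promoter and in 33% of all 27305. A stricter pattern for the sterol regulatory element, TCACNCCAC on either strand, was found only in SREBF2 among the 19 and in 0.875% of all promoters. Each line gives the longest part of that window outside exons of GENCODE release 29, from RefSeq on GRCh38.p14, 5′ to 3′ on the gene's strand, with CCAAT or its complement ATTGG in capitals.
MVD, chr16:88663162-88663297, minus strand: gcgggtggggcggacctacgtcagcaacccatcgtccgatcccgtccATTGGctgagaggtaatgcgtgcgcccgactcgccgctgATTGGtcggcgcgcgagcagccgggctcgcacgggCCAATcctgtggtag
LSS, chr21:46228825-46229024, minus strand: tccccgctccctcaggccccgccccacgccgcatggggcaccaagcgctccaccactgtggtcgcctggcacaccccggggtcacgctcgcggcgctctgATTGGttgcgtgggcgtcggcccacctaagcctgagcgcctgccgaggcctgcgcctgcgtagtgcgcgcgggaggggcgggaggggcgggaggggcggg
DHCR7, chr11:71448436-71448643, minus strand: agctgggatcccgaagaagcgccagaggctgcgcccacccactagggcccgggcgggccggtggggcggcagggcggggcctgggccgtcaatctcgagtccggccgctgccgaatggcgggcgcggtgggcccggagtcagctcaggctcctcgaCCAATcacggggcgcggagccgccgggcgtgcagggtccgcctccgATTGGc
MSMO1, chr4:165327419-165327622, plus strand: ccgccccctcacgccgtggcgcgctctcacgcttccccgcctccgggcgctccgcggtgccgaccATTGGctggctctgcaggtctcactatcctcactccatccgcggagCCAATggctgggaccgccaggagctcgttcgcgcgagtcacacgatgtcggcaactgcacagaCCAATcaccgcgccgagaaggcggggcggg
MVD shows 3 boxes, LSS 1, DHCR7 2 and MSMO1 3. A match describes the letters only and is not evidence of binding.

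Most listed genes of the matrix and of the YAP and TGF-beta pathways lay on the high side in shZMAT2-2. By sign alone so did 6372 of all 10066 tested genes. Integrins and cadherins anchor cells to the matrix and to each other, YAP with TEAD answers to tension on the cytoskeleton, and TGF-beta family ligands drive matrix genes. Of 25 tested matrix and mesenchymal genes 9 (36.0%) were higher without overlap and 1 (4%) lower, beside 10.6% and 6.7% of all genes. Their median was 0.46. Of 22 YAP and TEAD targets 5 (22.7%) were higher without overlap and 0 lower, with a median of 0.27. Of 31 activin and TGF-beta genes 7 (22.6%) were higher and 1 lower, also with a median of 0.27. These 3 medians kept their sign under each of the 5 scalings, and 0 of these genes passed limma's adjusted p in the fit of the arms alone. SPP1 and ANKRD1 are among the genes called in the 9-library fit with the covariate. In that fit the 3 medians were 0.18, 0.16 and 0.06. With the mitochondrial share as a term for the 6 libraries the medians were 0.09, -0.01 and 0.01, and in control 2 against the other controls 0.20, 0.14 and 0.16. The lists share members. THBS1, a matricellular activator of TGF-beta, read 10.2, 18.5 and 11.3 in shZMAT2-1, 25.3, 33.2 and 22.8 in shZMAT2-2 and 9.36, 8.86 and 8.11 in the controls. Control 2 lay between the other controls in THBS1, and the highest shZMAT2-1 library was replicate 2. CCN2, a matricellular target of YAP, read 109, 128 and 103 in shZMAT2-1 and 137, 152 and 139.5 in shZMAT2-2. BMP4, a bone morphogenetic ligand, read 3.62, 4.91 and 3.70 in shZMAT2-1, 10.5, 8.22 and 8.70 in shZMAT2-2 and 3.16, 8.22 and 3.17 in the controls, where control 2 equalled the lowest library of the second arm. ITGA5, the fibronectin receptor subunit, was the member of the matrix list that was lower without overlap. It read 31.2, 31.2 and 32.1 in shZMAT2-1, 20.99, 22.5 and 24.4 in shZMAT2-2 and 18.9, 14.99 and 18.4 in the controls. Outside the list COL26A1 (-0.95), THBS4 (-0.56) and COL6A1 (-0.42) were also lower without overlap, while LOXL4 (0.71) was higher. FST, which traps activin, was the member of the TGF-beta list lower without overlap, with 35.9, 29.96 and 35.1 in shZMAT2-1 and 23.4, 26.1 and 24.7 in shZMAT2-2. Among 23 tested adhesion genes 3 (13%) were higher and 2 (8.7%) lower without overlap, beside 10.6% and 6.7% of all genes. Their median of 0.49 was 0.03 with the mitochondrial share as a term, and control 2 had 0.25 against the other controls. CDH1, the epithelial cadherin, read 5.28, 8.42 and 6.49 in shZMAT2-1 and 10.99, 10.7 and 8.84 in shZMAT2-2.

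Ribosomal protein genes and respiratory chain genes formed the low end of the lists. Cytosolic ribosomal proteins build the ribosome, and the nuclear subunits of oxidative phosphorylation join those made inside mitochondria. Of 78 tested ribosomal protein genes 72 had a negative difference, with a median of -0.42, but only RPL17 was lower without overlap and 0 were higher. Of 72 nuclear respiratory subunits 60 were negative, with a median of -0.44, and 3 were lower and 2 higher without overlap. Both shares lower without overlap are below the 6.7% of all genes. By sign alone 3694 of all 10066 genes had a negative difference. RPS12, a protein of the small subunit, read 981, 255 and 929 in shZMAT2-1 and 209, 237 and 285 in shZMAT2-2, so that replicate 2 of shZMAT2-1 lay among the second arm. The controls, at 757, 238 and 714 in the controls, split in the same way. Control 2 had medians of -0.70 and -0.44 against the other controls for the same lists, and with the mitochondrial share as a term for the arms the medians were -0.02 and 0.02. At the other end stood 30 long-gene and chromatin regulators, of which 29 were above the median of all genes, with a median of 0.48, and 1 was higher without overlap. Their median was -0.05 with that term and 0.69 in control 2 against the other controls. POLR2A, the large subunit of RNA polymerase II, read 60.8, 117 and 61.6 in shZMAT2-1, 208, 112 and 115 in shZMAT2-2 and 71.9, 528 and 67.5 in the controls.

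**Figure D4:**
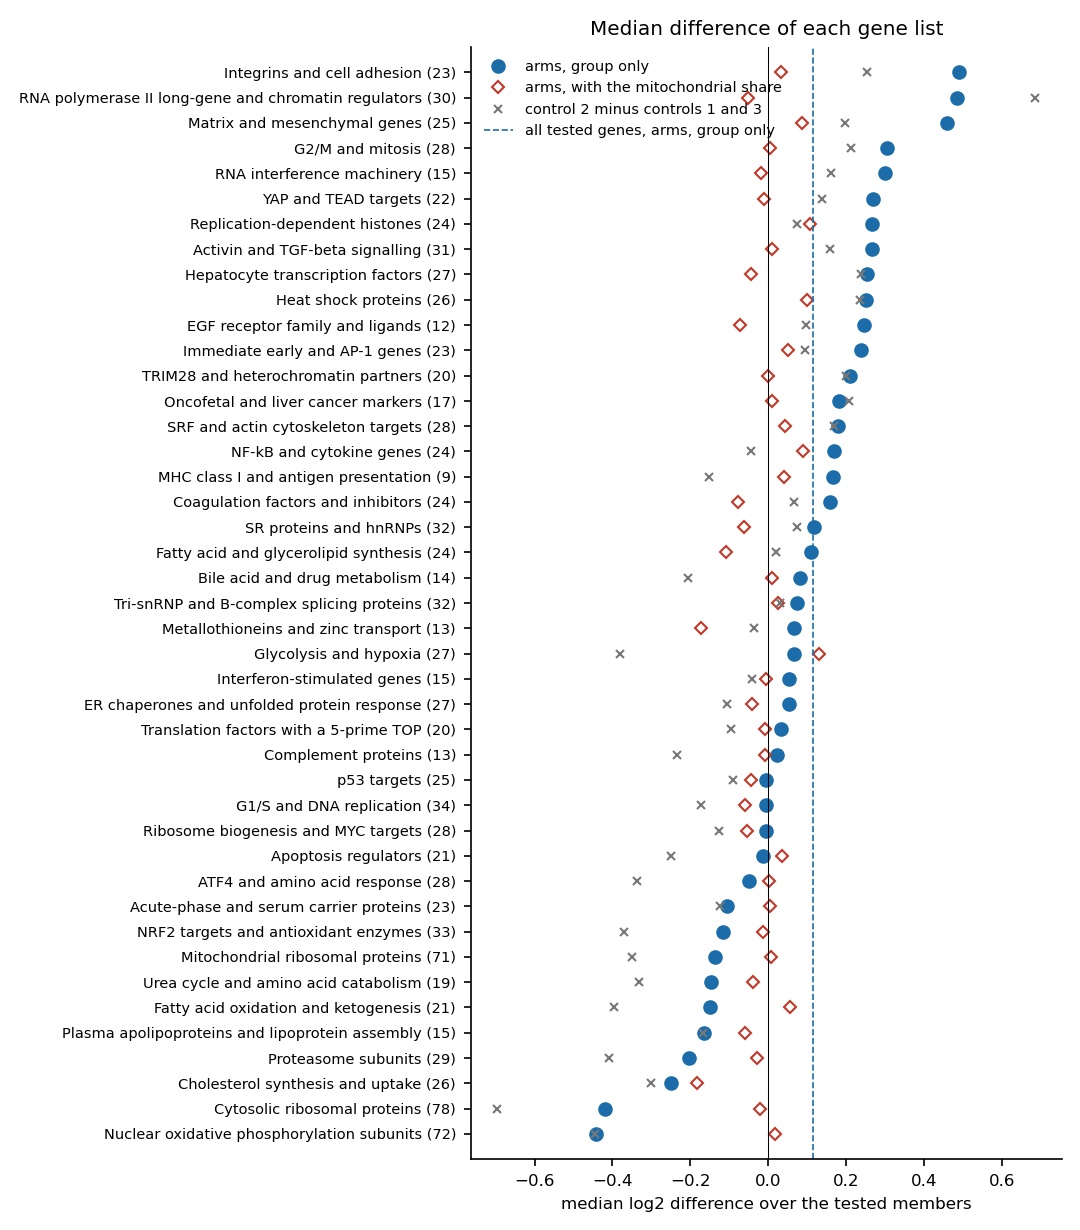
Median log2 difference of the tested members of each list (number in parentheses) for the arms (filled circles), for the arms with the mitochondrial share in the fit of 6 libraries (open diamonds) and for control replicate 2 against controls 1 and 3 (crosses). Circles run from -0.44 to 0.49 and diamonds from -0.18 (cholesterol synthesis) to 0.13 (glycolysis and hypoxia).

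The same gradient appeared along transcript length and base composition. With the genes in 5 bins of about equal size by GENCODE transcript length, the median difference went from -0.13 in the shortest transcripts to 0.28 in the longest, and in 5 bins of GC content from 0.28 in the lowest to -0.10 in the highest. Across 10051 genes with a transcript the Spearman correlation of the arm difference was 0.433 with length and -0.423 with GC content. In control 2 against the other controls it was 0.348 and -0.352. With the mitochondrial share as a term for the 6 arm libraries it had the opposite sign, -0.175 and 0.241. Of the shortest bin 10.6% were higher without overlap and 8.96% lower, and of the longest 5.62% and 2.39%. Both shares were highest in the second bin, at 13.7% and 9.45%. The mitochondrial share, length and GC content moved together over these libraries, and their part in the arm difference was not tested.

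**Figure D5:**
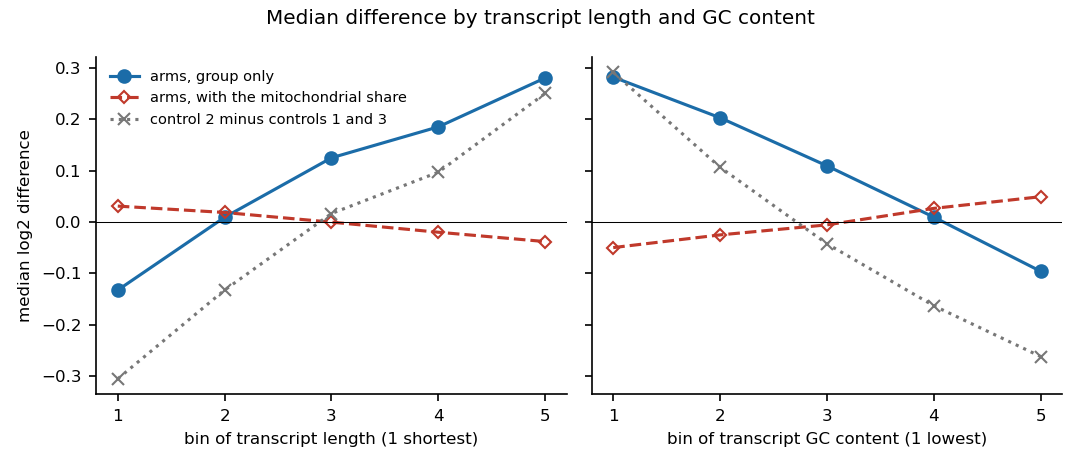
Median log2 difference in 5 bins of transcript length (left) and of GC content (right), for the arms, for the arms with the mitochondrial share in the fit and for control replicate 2 against controls 1 and 3. The arm line runs from -0.13 to 0.28 with length and from 0.28 to -0.10 with GC content, as does that of the controls in direction, while the line with the covariate stays within 0.05 of 0.

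Among stress and chromatin genes, histones and heat shock proteins lay on the high side. Replication-dependent histone mRNAs package new DNA and mostly lack a poly(A) tail, so a poly(A) library catches only part of them. Of 24 tested 7 (29.2%) were higher without overlap and 0 lower, beside 10.6% and 6.7% of all genes. Their median was 0.27, and 0.11 with the mitochondrial share as a term, and control 2 had 0.07 against the other controls. H2BC21 read 6.28, 6.98 and 7.04 in shZMAT2-1, 12.8, 11.6 and 11.7 in shZMAT2-2 and 10.02, 12.9 and 9.04 in the controls, while histone copies this alike can share reads. Of 26 heat shock proteins 8 (30.8%) were higher without overlap and 1 lower, with a median of 0.25 and 0.10 with that term. Control 2 had a median of 0.24 against the other controls for the heat shock list, close to that of the arms. HSPA8, the constitutive HSP70 chaperone, read 277, 314 and 272 in shZMAT2-1, 424, 409 and 380.3 in shZMAT2-2 and 443, 614 and 436 in the controls. Both medians were positive under each of the 5 scalings and 0 members passed the test. STC2, a secreted glycoprotein of the ATF4 response, read 5.93, 5.90 and 5.58 in shZMAT2-1, 8.34, 9.64 and 8.59 in shZMAT2-2 and 9.20, 9.11 and 8.91 in the controls, all within the range of shZMAT2-2. That list as a whole had 4 (14.3%) higher and 2 (7.14%) lower of 28 without overlap, near the shares of all genes.

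Splicing factors, the family to which ZMAT2 belongs, were split. Of 32 tri-snRNP and B-complex proteins 4 (12.5%) were higher without overlap, ZMAT2 among them, and 4 (12.5%) lower. These shares stand beside 10.6% and 6.7% of all genes. The median of 0.07 was negative under 3 of the 5 scalings and was 0.02 with the mitochondrial share as a term. LSM6, a ring protein of the U6 snRNP, read 5.33, 3.69 and 5.30 in shZMAT2-1 and 3.02, 3.03 and 3.31 in shZMAT2-2, with 5.32, 4.27 and 6.43 in the controls. PPIH, a cyclophilin of the tri-snRNP, read 3.89, 3.39 and 4.13 in shZMAT2-1 and 2.94, 2.77 and 2.77 in shZMAT2-2. Of 32 SR proteins and hnRNPs 1 was higher and 5 (15.6%) lower without overlap, with a median of 0.12, close to that of all genes, which turned negative under 2 scalings and was -0.06 with that term. HNRNPA0 read 37.3, 26.3 and 38.04 in shZMAT2-1 and 18.5, 23.8 and 24.2 in shZMAT2-2, and 35.5, 14.9 and 34.2 in the controls, with control 2 lowest. In the list of TRIM28 and its heterochromatin partners 4 of 20 (20%) were higher and 1 (5%) lower without overlap. The lower one was CBX3, a heterochromatin protein, at 47.4, 33.4 and 46.00 in shZMAT2-1 and 30.00, 28.02 and 29.6 in shZMAT2-2. The median of that list was 0.21, and -0.001 with the mitochondrial share as a term for the 6 libraries. Control 2 had 0.20 against the other controls, and on the FPKM as deposited the arm median was -0.02.

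Plasma proteins and metal-binding proteins of the liver differed gene by gene. Of 23 acute-phase and carrier proteins 5 (21.7%) were lower and 3 (13%) higher without overlap, beside 6.7% and 10.6% of all genes. Their median was -0.11, and 0.01 with the mitochondrial share as a term, and control 2 had -0.12 against the other controls. FGL1, a secreted fibrinogen-like protein, read 29.2, 23.7 and 30.9 in shZMAT2-1, 14.4, 15.9 and 17.98 in shZMAT2-2 and 33.7, 20.03 and 35.6 in the controls. GC, the vitamin D carrier, read 295, 309.7 and 306 in shZMAT2-1, 227, 241 and 237 in shZMAT2-2 and 238, 229 and 249.9 in the controls, so shZMAT2-1 was the arm apart. Of 24 coagulation genes 5 (20.8%) were lower and 2 higher, while the median of 0.16 was positive, and negative on the FPKM as deposited and with that term (-0.08). F2, which encodes prothrombin, read 89.7, 73.5 and 86.2 in shZMAT2-1, 57.9, 61.7 and 68.1 in shZMAT2-2 and 106, 103 and 101 in the controls, with no control in the range of either arm. Of 13 metallothioneins and zinc transporters 4 (30.8%) were lower and 0 higher, with a median of 0.07 that was negative under 3 of the 5 scalings and was -0.17 with that term. MT1G followed MT1M, at 4.96, 4.20 and 4.51 in shZMAT2-1, 0.927, 2.32 and 2.39 in shZMAT2-2 and 1.72, 0.375 and 2.24 in the controls. SLC39A14, a zinc importer, read 68.8, 72.1 and 78.2 in shZMAT2-1 and 48.6, 63.9 and 49.1 in shZMAT2-2 and 94.6, 51.7 and 87.2 in the controls. FOXA3, a forkhead factor of hepatocytes, read 20.3, 17.6 and 20.3 in shZMAT2-1, 12.6, 12.1 and 14.8 in shZMAT2-2 and 18.2, 19.6 and 17.9 in the controls, one of few such factors without overlap (1 higher and 3 lower of 27).

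Inflammatory and antioxidant genes were mixed as well. Of 24 tested NF-kB and cytokine genes 6 (25.0%) were higher and 2 (8.33%) lower without overlap, beside 10.6% and 6.7% of all genes. Their median of 0.17 was -0.05 on the FPKM as deposited and 0.09 with the mitochondrial share as a term. CXCL1, a chemokine that attracts neutrophils, read 10.7, 12.5 and 12.1 in the controls, 30.3, 40.3 and 28.04 in shZMAT2-1 and 45.6, 43.95 and 42.8 in shZMAT2-2. ICAM1, the leukocyte adhesion molecule, read 49.7, 68.1 and 45.9 in shZMAT2-1 and 75.1, 81.2 and 75.2 in shZMAT2-2, and 60.2, 87.7 and 55.3 in the controls, with control 2 the highest of all. IFITM3, an interferon-induced membrane protein with near-identical relatives, read 8.69, 10.4 and 8.55 in shZMAT2-1, 18.3, 13.7 and 18.9 in shZMAT2-2 and 6.43, 11.6 and 7.64 in the controls. Of 33 NRF2 targets and antioxidant enzymes 2 were higher and 5 (15.2%) lower, with a median of -0.12, and -0.01 with that term. Control 2 had a median of -0.37 against the other controls for that list. GPX2, a glutathione peroxidase, read 15.98, 21.8 and 13.1 in shZMAT2-1 and 30.6, 30.6 and 34.3 in shZMAT2-2, while NQO1, a quinone reductase, read 29.8, 17.8 and 26.5 in shZMAT2-1 and 11.5, 16.7 and 15.2 in shZMAT2-2. In both genes control 2 lay on the side of shZMAT2-2, with GPX2 at 17.7, 32.1 and 18.4 in the controls and NQO1 at 34.8, 14.8 and 33.9 in the controls. IER3, an early response gene and one of the largest differences at 1.155, read 13.7, 25.4 and 11.9 in shZMAT2-1, 32.6, 39.1 and 40.00 in shZMAT2-2 and 16.1, 24.02 and 15.9 in the controls.

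The largest differences without overlap mostly followed the controls' own split. Among genes with a mean of at least 5 in either arm, the 14 with the largest positive difference ran from SULT1C4 (1.30) to ERP27 (0.93), and the 14 with the largest negative one from TMEM256 (-1.41) to NAT14 (-0.90). SULT1C4, a sulfotransferase, read 13.1, 27.1 and 13.2 in shZMAT2-1, 62.3, 33.7 and 36.9 in shZMAT2-2 and 7.25, 36.4 and 6.89 in the controls. TPP1, a lysosomal peptidase, read 9.31, 23.8 and 9.49 in shZMAT2-1, 49.8, 23.8 and 24.5 in shZMAT2-2 and 11.4, 93.9 and 11.4 in the controls. In both, control 2 lay in the range of shZMAT2-2 or above it, and replicate 2 was the highest shZMAT2-1 library. TOMM7, a subunit of the mitochondrial import pore, read 26.8, 6.68 and 27.8 in shZMAT2-1, 5.84, 5.79 and 6.30 in shZMAT2-2 and 23.7, 7.98 and 21.5 in the controls. Its difference of -1.39 compares with -1.39 among the controls. With the covariate in the 9-library fit SULT1C4 had 0.38, TPP1 -0.01 and TOMM7 -0.64.

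In 284 of the 1740 genes without overlap the arm difference had the opposite sign to that of the controls, 231 higher and 53 lower in shZMAT2-2. LOXL4, PSMD3, CES1, THBS4 and FOXA3 are among them. KRT23, a keratin, read 7.36, 7.18 and 6.44 in shZMAT2-1, 10.5, 10.9 and 10.9 in shZMAT2-2 and 8.32, 5.23 and 7.68 in the controls. HOXD1, a homeobox factor, read 8.67, 8.43 and 8.30 in shZMAT2-1, 3.72, 4.67 and 5.39 in shZMAT2-2 and 6.53, 7.55 and 6.62 in the controls. TBX2, a T-box repressor, read 14.4, 13.5 and 14.2 in shZMAT2-1, 9.74, 9.97 and 11.1 in shZMAT2-2 and 7.19, 8.86 and 7.88 in the controls, with shZMAT2-1 apart. In KRT23 and HOXD1 replicate 2 of shZMAT2-1 lay between the other libraries of its arm. By chromosome, which was looked at after the values were seen, the extremes of 23 were chromosome X, with 60 of 301 genes (19.9%) higher without overlap, and chromosome 22, with 34 of 236 (14.4%) lower.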

How the data were processed

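The authors deposited 1 table of FPKM for 9 libraries, and its unit is taken from the table's name and values, since no label describes it. Per the submitters' processing notes the tools were HISAT, featureCounts and DESeq2, with no version stated. The sources used here give no genome build. Libraries were grouped by their titles. Each library was rescaled to the mean nuclear FPKM sum of the 6 arm libraries, 187242, so that mitochondrially encoded mRNA does not set the scale. limma 3.58.1 in R 4.3.3 was fitted with a mean-variance trend to log2(rescaled FPKM + 1) of the 6 libraries with the arm as the only term, and p-values were adjusted by the Benjamini-Hochberg method over all 10066 genes. A pseudocount of 1 understates the change of low genes. Single values were tested by exact permutation of the 3 against 3 libraries. Depth was recovered from single-exon genes, where 98.2% to 100.0% of low values were a whole number of fragments to within 0.1. The deposited FPKM are not counts, so no count model was used. Genes were named by rule: ZMAT2, TRIM28, the 14 largest differences without overlap in each direction at a mean of at least 5, and up to 4 members of each of 48 lists with the smallest p. Other genes were chosen after their values were seen, and some genes that the rule names are not reported here. The members and lists were chosen with earlier results of these data known. Transcript length and GC content came from GENCODE release 29, which held 10051 of the tested genes, and promoters from RefSeq. The fits were tested on simulated data. Alternatives covered scaling, filter, pseudocount, trend, libraries, a replicate block and the mitochondrial share as a term.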

Additional observations from a re-analysis of the deposited data

Results flagged for a closer look

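Long noncoding RNAs were outside the comparison of protein-coding genes. Of 58 named ones with a mean rescaled FPKM of at least 5 over the 9 libraries, 2 (3.45%) lay above every shZMAT2-1 and every control library in all 3 libraries of shZMAT2-2. The same held for 216 of the 6021 tested protein-coding genes with that mean (3.59%), so the share among long noncoding RNAs was near that background. LINC00857 averaged 6.55 in shZMAT2-2, 4.87 in shZMAT2-1 and 3.74 in the controls. DANCR averaged 23.5, 19.2 and 16.2 in the same order. The difference was not tested for these genes.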

How the results depend on the processing

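The count of 0 called genes was also 0 under 25 of 30 alternatives, and differed in 5. It was 24 with the mitochondrial share as a term over all 9 libraries, 2 (H2AC16 and H4C15, both overlapping between the arms) with only the libraries of overlapping mitochondrial share, and 0 to 5041 when 1 arm library was left out, the high value without shZMAT2-1 replicate 2. With that term and 1 of 9 libraries left out, alternatives chosen after seeing the data, it was 0 to 427, with 16 without shZMAT2-2 replicate 3. A replicate block gave 0 calls. The same-numbered libraries of the arms deviated with correlations of -0.688, 0.214 and 0.695, so the numbers were not taken as pairs. ZMAT2 had a difference of 0.48 to 0.89 over all alternatives and passed limma's adjusted p of 0.05 without shZMAT2-1 replicate 2 (difference 0.88, adjusted p 0.00242) and with the share as a term without that library (0.48, adjusted p 0.039). With 1 arm library left out it ran from 0.71 to 0.89. TRIM28 ran from -0.55 to -0.29 with 1 arm library left out and passed without shZMAT2-1 replicate 2 (-0.55, limma adjusted p 0.0124). Without that library and without the share as a term, arm and share cannot be told apart, for ZMAT2 as for TRIM28. In the libraries of overlapping share TRIM28 had a difference of 0.0025, where 1 library stands for shZMAT2-1 and is assumed to vary like the others. Of 6735 values of 226 named genes under the alternatives, 6576 had the direction given and 4717 moved by less than 1 SD. Of 1437 list medians, 1224 had the direction given. Depth was 21890000 to 23610000 fragments in shZMAT2-2, 22790000 in shZMAT2-1 replicate 2 and 22750000 in control replicate 2. In the other libraries it was 18340000 to 20320000, so depth split the libraries as the mitochondrial share did. The share differed more than depth, and the part of either in the arm difference was not tested.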

Other observations

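A few genes of glycolysis and hypoxia were higher in shZMAT2-2 without overlap. Of 27 tested genes of glycolysis and hypoxia 5 (18.5%) were so, beside 10.6% of all genes, and 1 was lower. The 5 were PKLR (0.61), BNIP3 (0.55), BNIP3L (0.47), NDRG1 (0.36) and VEGFA (0.33), and the lower one PFKM (-0.52). BNIP3, a mitophagy receptor induced by HIF1, read 21.1, 25.3 and 21.1 in shZMAT2-1 and 36.9, 32.0 and 30.9 in shZMAT2-2, with 25.1, 35.3 and 26.4 in the controls. The list's median was 0.07, and 0.13 with the mitochondrial share as a term for the 6 libraries, while control 2 had -0.38 against the other controls. On the FPKM as deposited the median was -0.16. The 5 higher genes differed from the list among the controls. There control 2 had 0.40 in PKLR, 0.44 in BNIP3, 0.30 in BNIP3L, -0.0012 in NDRG1 and -0.013 in VEGFA. With the share as a term for the 6 libraries their arm differences were 0.36, 0.33, 0.14, 0.15 and 0.195 in that order.

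Urea cycle and amino acid catabolism genes had a median difference of -0.15. With the mitochondrial share as a term it was -0.04 for the 6 libraries and 0.02 for all 9, and control 2 had -0.33 against the other controls. Of 19 tested genes 4 (21.1%) were lower without overlap and 2 higher, beside 6.7% and 10.6% of all genes. SDSL, a serine dehydratase-like enzyme, read 3.48, 1.91 and 4.63 in shZMAT2-1 and 1.11, 1.47 and 1.58 in shZMAT2-2, with 3.26, 1.12 and 3.29 in the controls, so that control 2 lay on the side of shZMAT2-2. NAGS, which makes the activator of the urea cycle, read 6.36, 4.79 and 5.93 against 2.55, 3.90 and 3.82, with 5.51, 4.89 and 6.18 in the controls. The higher ones were HAL and ARG1. 0 of these genes passed limma's adjusted p, and 0 of all 10066 did, with 1772 at an unadjusted p under 0.05.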
